A study of Mus musculus with 2 samples.

Results

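The genes described here encode the subunits of integrins, the heterodimeric receptors by which cells hold on to the matrix and to one another, and the chains of laminins, the trimeric glycoproteins that form the scaffold of basement membranes. They were picked by gene symbol alone (Itga or Itgb, or Lama, Lamb or Lamc, with a subunit number or letter, leaving out the integrin-binding Itgb1bp genes). The rule itself uses no measured value. The rule found 38 of the 19938 genes that have a probeset of their own. Of these, 18 are integrin alpha subunits, 9 are integrin beta subunits and 10 are laminin chains, and the last, Itgb3bp, shares only the letters of its name and encodes a centromere protein.

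Both samples came from i-OSKM-ESC, a strain 129 mouse embryonic stem cell line made from KH2 cells, engineered to express Oct4, Klf4, c-Myc and a Sox2 with an epitope tag when doxycycline is present. The treated culture received doxycycline at 4 µg/mL for 24 hours (the array labelled +Dox), and its control, which carries the same transgenes, was given fresh medium without the drug (the array labelled -Dox). Both were grown on plastic coated with gelatin, which is denatured collagen. Each group is 1 culture of 1 line on 1 whole-transcript array. No difference below therefore has a replicate error or a test, and an effect of the drug cannot be told apart from an effect of the factors.

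An integrin alpha subunit sets most of the ligand preference of its heterodimer, and the beta subunit carries the tail that talin and kindlin bind to activate the receptor. The beta 1 subunit pairs with most alpha subunits, whereas beta 4 pairs only with alpha 6. A laminin is built from an alpha, a beta and a gamma chain. Laminin with the alpha 1 chain is typical of the first embryonic basement membranes, and laminin with the alpha 5 chain is used as a substrate for stem cells in culture.

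Values are the authors' RMA values on a log2 scale, and a difference is the +Dox value minus the -Dox value. To pass a filter on dim genes, at least 1 of a gene's values had to be 6.48 or more, which is the median of the table, and a passing gene was called at a difference of 2-fold or more. All 9 embryonic stem cell markers examined (among them Pou5f1, Nanog and Zfp42) passed, with a median difference of -0.44 and a summed linear level of 26405 on the +Dox array and 34446 on the -Dox array. Beside Sox2, the markers with the largest differences were Utf1 (-0.95) and Tdgf1 (-0.73). Among the induced factors, Klf4 differed by 0.43, Pou5f1 by 0.41 and Myc by 0.35, while Sox2 fell by 1.01, so these probesets do not settle the labels and every direction rests on them. In RNA of a whole culture, a change in the number of cells of a type and a change in RNA per cell cannot be told apart.

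Promoter sequence is shown for the called receptor gene that has a window in the RefSeq table (Itga9), for the alpha subunits with the lowest differences (Itga5 and Itga3), and for the beta subunit that all 3 pair with (Itgb1). Each run is the 250 bases before an annotated transcript start, from RefSeq, build GRCm38.p6, 5′ to 3′ along the gene. Capitals mark CACCC or its reverse complement, the box bound by Krüppel-like factors such as Klf4. For Itga9 the table's start lies inside the annotated gene, 104983 bases from its outer end. For Itga3 the window nearest the outer end is given.
Itga9, chr9:118711442-118711691, + strand: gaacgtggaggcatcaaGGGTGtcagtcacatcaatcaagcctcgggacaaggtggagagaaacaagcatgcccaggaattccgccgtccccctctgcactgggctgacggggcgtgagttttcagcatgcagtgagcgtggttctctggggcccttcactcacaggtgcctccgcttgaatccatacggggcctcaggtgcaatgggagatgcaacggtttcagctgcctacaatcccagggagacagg
Itga5, chr15:103366792-103367041, - strand: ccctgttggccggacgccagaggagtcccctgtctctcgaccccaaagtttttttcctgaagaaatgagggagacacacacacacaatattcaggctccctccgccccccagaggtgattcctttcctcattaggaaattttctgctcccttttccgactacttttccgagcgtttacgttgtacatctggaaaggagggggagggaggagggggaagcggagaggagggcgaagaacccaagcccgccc
Itga3, chr11:95076715-95076964, - strand: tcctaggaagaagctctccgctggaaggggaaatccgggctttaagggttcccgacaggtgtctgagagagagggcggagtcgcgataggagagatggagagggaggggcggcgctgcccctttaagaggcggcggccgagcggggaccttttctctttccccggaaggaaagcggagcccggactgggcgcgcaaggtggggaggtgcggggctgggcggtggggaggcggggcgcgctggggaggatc
Itgb1, chr8:128685404-128685653, + strand: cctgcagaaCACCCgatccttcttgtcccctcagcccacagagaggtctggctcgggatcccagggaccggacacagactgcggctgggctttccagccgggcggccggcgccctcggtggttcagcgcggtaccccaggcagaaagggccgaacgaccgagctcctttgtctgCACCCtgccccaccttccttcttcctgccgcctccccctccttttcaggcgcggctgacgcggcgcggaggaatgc

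Motifs were searched on both strands of 28 such windows from 25 of the 38 genes. CACCC was present in 17 of the 28, against 52.0% of all 32851 windows of the same length. In the printed windows it occurred 1 time for Itga9, 2 times for Itgb1 and 0 times for Itga5 and Itga3. The Itga9 window lies inside the gene, so its count does not describe the outer start. The Myc E-box CACGTG and the Oct4 octamer ATGCAAAT were in 0 of the 28 windows, against 6.02% and 1.60% of all windows. The Sox letters CATTGTT were in 1 window, that of Itga8, against 3.29% of all windows, and no motif overlapped another in a member's window. These are matches of letters in a short stretch, and binding was not measured.

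Across the family, 2 receptor genes, Itga9 and Itgb3, were called higher on the +Dox array and 0 genes were called lower. Over all 11191 genes that passed the filter, 0.920% were called higher and 0.768% lower. Among the 38 genes, 19 passed the filter, and 3 of these (Itgb3, Itga10 and Itgb2l) passed only through the +Dox value. Differences were above 0 for 26 of the 38, a share of 68.4%, against 51.6% of all 19938 genes, and with loess centring, which removes a trend with mean level, for 25. The share was 68.4% both for the 19 members that passed and for the 19 below the filter. Over all genes it was 44.4% of those that passed and 60.8% of those below the filter. The median difference was 0.15 over the 38 and 0.01 over all genes.

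**Figure D1:**
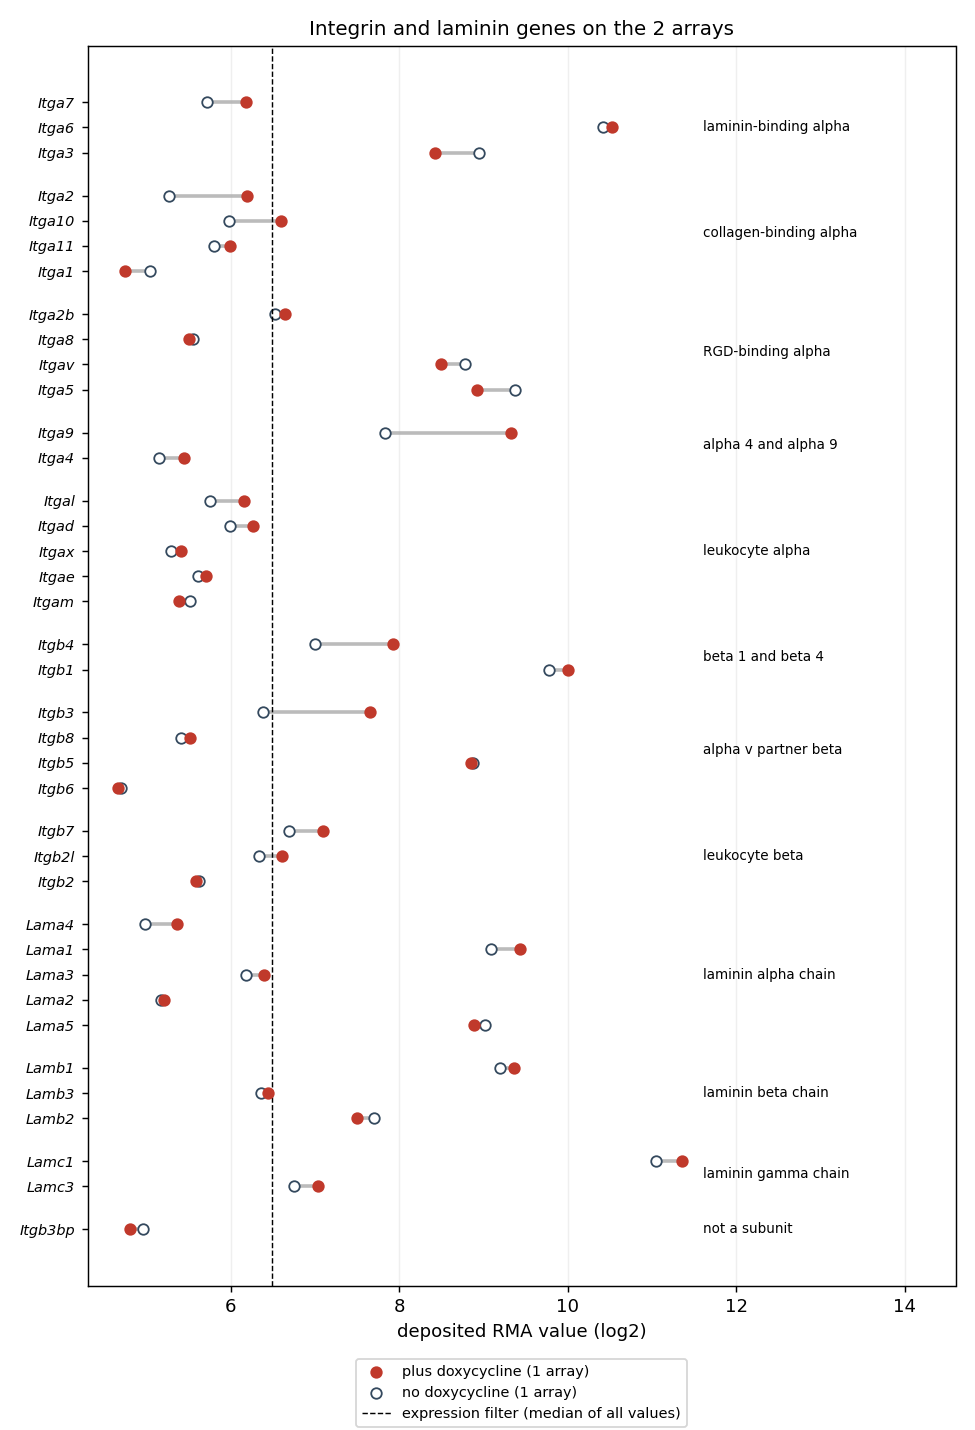
Deposited log2 RMA value (horizontal axis) of each of the 38 genes, with a filled point for the +Dox array and an open point for the -Dox array, grouped by role, and a dashed line at the filter of 6.48. The widest gaps are those of Itga9 and Itgb3; levels of different genes come from different probes and are not comparable.

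The gene with the largest difference of the family was Itga9, which encodes the alpha 9 subunit, a partner of beta 1 that binds tenascin C, VCAM-1 and osteopontin. Its log2 value was 9.32 on the +Dox array and 7.83 on the -Dox array. Both values stood above the filter, and Itga9 was 2.80-fold higher on the +Dox array (difference 1.49). Of the 997 genes of like mean level, Itga9 itself included, 0.301% differed by at least as much in the same direction. The related alpha 4 subunit gene Itga4, whose product also binds VCAM-1, had 5.44 on the +Dox array and 5.14 on the -Dox array, both below the filter.

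Itgb3 encodes the beta 3 subunit, which forms the vitronectin receptor with alpha v and the platelet fibrinogen receptor with alpha IIb. The value of Itgb3 was 7.65 on the +Dox array and 6.38 on the -Dox array, 2.42-fold higher (difference 1.27). Its -Dox value lay under the filter, so Itgb3 passed through the +Dox value alone and was not called where both values had to pass. With 32 added to both linear values (an offset), the difference was 1.02, just past 2-fold. Its alpha partner genes differed much less. Itgav had 8.49 on the +Dox array and 8.78 on the -Dox array (difference -0.29), and Itga2b, the alpha IIb gene, had 6.64 on the +Dox array and 6.52 on the -Dox array (difference 0.12).

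The other beta partners of alpha v showed little difference. Itgb5, whose product binds vitronectin, had 8.84 on the +Dox array and 8.87 on the -Dox array. Itgb6 and Itgb8, whose products activate latent TGF-beta, lay below the filter on both arrays, with differences of -0.04 and 0.11. Among these 4 beta genes, Itgb3 was thus the only one called.

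The beta 3 and alpha 9 subunits also occur in platelets, endothelium or muscle, and the markers of those cells were read beside them. The 3 platelet markers measured (Gp9, Pf4 and Ppbp) were all below the filter, with a summed linear level of 113 on the +Dox array and 109 on the -Dox array. Of 7 endothelial markers, 3 passed the filter and Cdh5, Kdr, Tie1 and Vwf did not. The endothelial sum was 904 on the +Dox array and 718 on the -Dox array. Tek, an angiopoietin receptor gene, had 7.31 on the +Dox array and 6.50 on the -Dox array, and Pecam1, which mouse embryonic stem cells also express, had 8.62 on the +Dox array and 8.18 on the -Dox array. Esam, the third passing marker, passed only through its -Dox value and had a difference of -0.24. In all, 4 of 7 endothelial markers did not reach the filter. Of 6 muscle markers, 3 passed (Des, Tnnt2 and Acta1), and the sum was 882 on the +Dox array and 928 on the -Dox array. The part of such cells in the higher Itga9 and Itgb3 values was not tested.

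**Figure D2:**
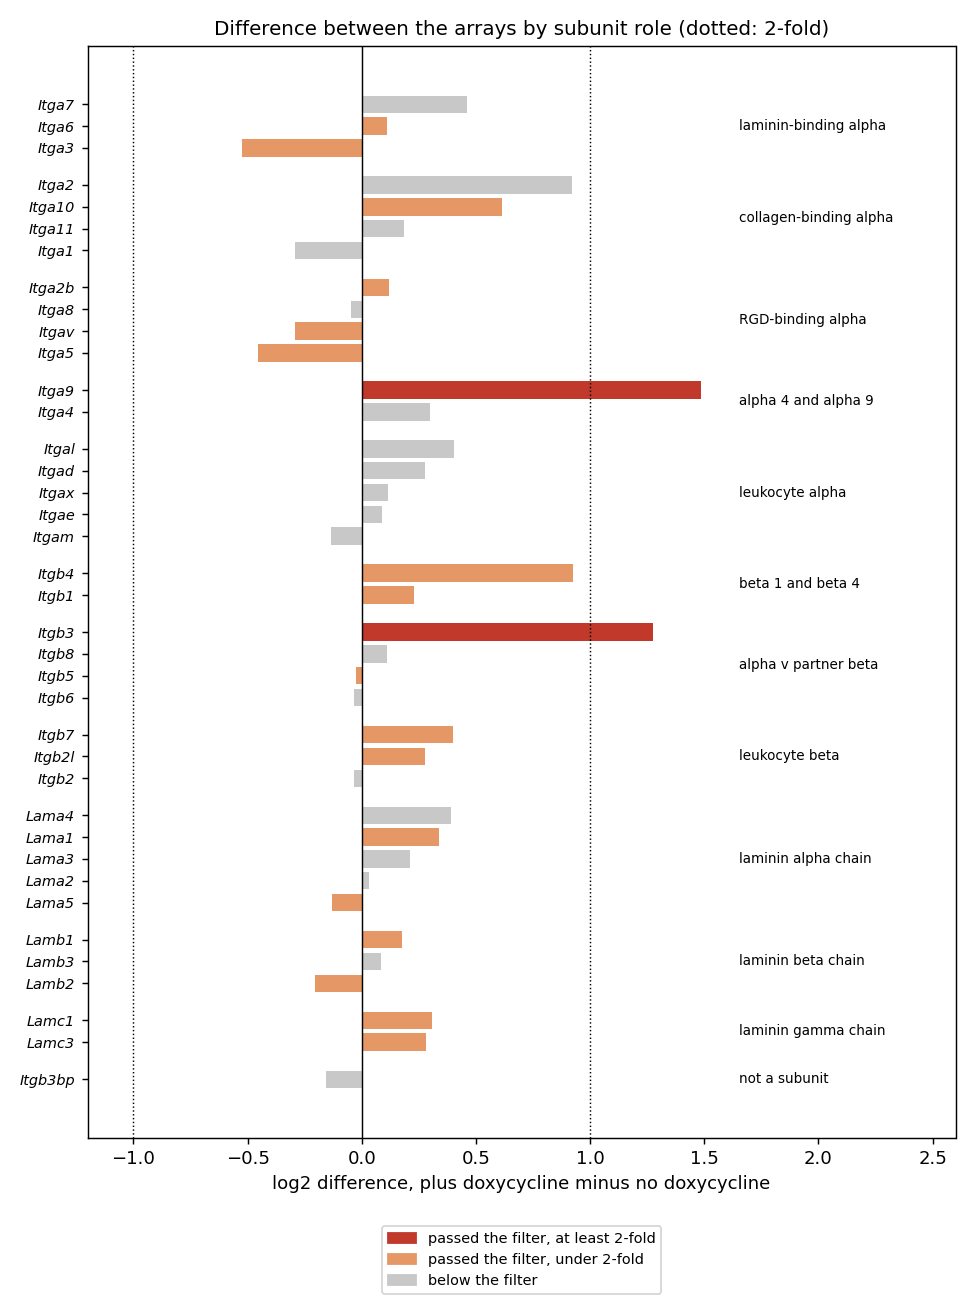
Log2 difference, +Dox minus -Dox, of each gene (bars from 0), grouped by role, with dotted lines at 2-fold. Dark red bars are Itga9 and Itgb3, the called genes; orange bars passed the filter but stayed under 2-fold, as Itgb4 did at 0.93; grey bars are below the filter.

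Just under the threshold stood Itgb4, which encodes the beta 4 subunit of hemidesmosomes, the junctions that tie keratin filaments to laminin. Itgb4 had 7.93 on the +Dox array and 7.00 on the -Dox array, both above the filter, a difference of 0.93 or 1.90-fold. Its only partner gene, Itga6, had 10.53 on the +Dox array and 10.41 on the -Dox array, a difference of 0.11. The beta gene thus lay apart on the arrays and its alpha partner close.

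Hemidesmosome partners were mixed. Of 4 genes measured, all passed the filter and 0 were called. Plec, the plectin gene that links beta 4 to keratin, had 8.01 on the +Dox array and 7.32 on the -Dox array. Col17a1, a transmembrane collagen of the same junction, had 6.59 on the +Dox array and 6.22 on the -Dox array. Col17a1 passed only through the +Dox value. The tetraspanin gene Cd151, whose product binds laminin-binding integrins, had 8.76 on the +Dox array and 9.17 on the -Dox array, so it lay on the other side. Keratinocyte markers were read beside Itgb4. All 9 differences in that list were positive, with a median of 0.28, and the summed linear level was 2878 on the +Dox array and 1704 on the -Dox array. Over all genes, 51.6% of differences were above 0. Among all genes below the filter, where most of this list lies, the share was 60.8%. The keratin gene Krt17 was called higher, with 7.52 on the +Dox array and 6.29 on the -Dox array. Perp, a desmosome gene, had 10.47 on the +Dox array and 9.62 on the -Dox array, and Sfn, the stratifin gene, had 9.87 on the +Dox array and 9.06 on the -Dox array. Perp and Sfn, the brightest of the list, make up most of both sums. Krt17, Perp and Sfn passed the filter and were on the higher side, as Itgb4 was. Krt17 passed only through the +Dox value, whereas both values of Itgb4 were above the filter. The markers Krt5, Krt14, Krt1, Krt10, Trp63 and Ivl were below the filter on both arrays. Their part in the Itgb4 value was not tested.

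Of the other laminin-binding alpha subunits, Itga3 had the lowest difference of the whole family. Its value was 8.42 on the +Dox array and 8.95 on the -Dox array, a difference of -0.52 or 1.44-fold. This is under 1.5-fold, and 5.92% of genes of like level were lower by at least as much. Itga7, a laminin receptor subunit of muscle, had 6.18 on the +Dox array and 5.72 on the -Dox array, both below the filter. The 3 laminin-binding alpha genes thus spanned -0.52 to 0.46.

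Of the 4 genes for alpha subunits that bind the RGD sequence of fibronectin and vitronectin, 3 had negative differences, and the median was -0.17. Over all genes, 9627 of 19938 differences were negative, and 6215 of 11191 among those that passed. Beside these shares, 3 of 4 does not set the group apart. Itga5, which with beta 1 forms the main fibronectin receptor, had 8.92 on the +Dox array and 9.37 on the -Dox array. That is a difference of -0.45, and 6.52% of genes of like level were lower by at least as much. Itga8, the nephronectin receptor subunit, was below the filter, at 5.50 on the +Dox array and 5.54 on the -Dox array. Of these RGD-binding alpha genes, 0 were called at 2-fold or at 1.5-fold.

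Itgb1, the common partner, had 10.01 on the +Dox array and 9.78 on the -Dox array. The difference of 0.23 is 1.17-fold, and 11.7% of genes of like level were higher by at least as much. The shared beta 1 gene thus stood slightly higher on the +Dox array, and less so than Itga9.

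Of the 4 collagen-binding alpha subunit genes, 3 had positive differences, mostly at low values. Among all genes below the filter, 60.8% of differences were above 0. Itga2 had 6.19 on the +Dox array and 5.27 on the -Dox array, a difference of 0.92, but both values lay below the filter. With the offset of 32 its difference was 0.57. Itga10, an alpha subunit of cartilage, had 6.59 on the +Dox array and 5.98 on the -Dox array, so that it passed the filter only on the +Dox array, with a difference of 0.61. Both genes were thus near or under the filter. Itga11 had 5.99 on the +Dox array and 5.80 on the -Dox array, and Itga1, with a negative difference, had 4.74 on the +Dox array and 5.03 on the -Dox array. Of the 4, 0 were called.

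At a threshold of 1.5-fold, the genes higher on the +Dox array were Itga9, Itgb3, Itgb4 and Itga10, 4 of the 19 that passed, and 0 were lower. Of the 11191 genes, 3.24% were higher and 3.80% lower at that threshold. All 4 are receptor genes. Of the 10 laminin chains, only 6 passed the filter and could be called, and 0 were. Beside the shares over all genes, that count does not set the laminin chains apart from the receptors.

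Of the 8 leukocyte integrin subunit genes, only Itgb7 and Itgb2l passed the filter. The alpha genes Itgal, Itgam, Itgax, Itgad and Itgae, which serve adhesion of blood cells, were all below the filter. They ran from 5.38 (Itgam) to 6.26 (Itgad) on the +Dox array and from 5.29 (Itgax) to 5.98 (Itgad) on the -Dox array, and their differences lay between -0.13 (Itgam) and 0.40 (Itgal). Itgad, the one member with several probesets, had differences of 0.27 and 0.29 in its 2. Their beta partner Itgb2 was likewise below the filter, at 5.58 on the +Dox array and 5.62 on the -Dox array. Itgb7, which pairs with alpha 4 and alpha E, passed, with 7.09 on the +Dox array and 6.69 on the -Dox array. Itgb2l, a beta 2-like gene, had 6.60 on the +Dox array and 6.33 on the -Dox array. Both were on the higher side by less than 1.5-fold. Of the 9 blood cell markers measured, 3 passed (Laptm5, Cd68 and Cd3e), and the pan-leukocyte marker Ptprc and the myeloid marker Csf1r were below the filter on both arrays. The blood cell sum was 1906 on the +Dox array and 1436 on the -Dox array, with a median difference of 0.07. Most of both sums is Laptm5, which had 10.45 on the +Dox array and 9.86 on the -Dox array. The other passing blood cell markers had differences of 0.23 (Cd3e) and -0.20 (Cd68). The part of blood cells in the leukocyte subunit values was not tested.

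Laminin chains differed little. Of 10 measured, 6 passed the filter, 0 were called, and the differences ran from -0.20 to 0.39 with a median of 0.19. Lamc1, the gamma 1 chain shared by most laminins, had 11.35 on the +Dox array and 11.04 on the -Dox array. Lamb1, the beta 1 chain, had 9.37 on the +Dox array and 9.19 on the -Dox array. Lama1, the alpha 1 chain, had 9.43 on the +Dox array and 9.09 on the -Dox array. These 3 chains, which together make the first embryonic laminin, all stood slightly higher on the +Dox array, by 0.31, 0.18 and 0.34.

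Lama5, the alpha 5 chain, had 8.88 on the +Dox array and 9.01 on the -Dox array. Lamb2, the beta 2 chain of kidney and synaptic basement membranes, had 7.49 on the +Dox array and 7.70 on the -Dox array. They were the only laminin chains with negative differences, -0.13 and -0.20, although Lama2, at 0.03, turned negative with loess centring or quantile normalization. Lamc3, the gamma 3 chain, had 7.03 on the +Dox array and 6.75 on the -Dox array. Lama2 and Lama4, the alpha chains of muscle and vessels, and Lama3 and Lamb3, chains of the epidermal laminin, were below the filter on both arrays. They ran from 5.20 (Lama2) to 6.44 (Lamb3) on the +Dox array and from 4.98 (Lama4) to 6.36 (Lamb3) on the -Dox array, with differences between 0.03 and 0.39. Itgb3bp, the gene that is no subunit, was below the filter too, at 4.80 on the +Dox array and 4.95 on the -Dox array.

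Primitive, visceral and parietal endoderm makes much laminin, and feeder fibroblasts secrete matrix, so both were checked beside the laminin values. The 12 endoderm markers had a median difference of -0.09 with 0 called. Their summed level was 1500 on the +Dox array and 1790 on the -Dox array, and Afp and Ttr were below the filter. The passing endoderm markers with the largest differences were Cubn (-0.93), Pdgfra (-0.43) and Hnf4a (0.34). The 12 fibroblast markers had a median of 0.26, with 6 passing and 0 called, and their sum was 972 on the +Dox array and 838 on the -Dox array. Col1a2 (0.50), Col1a1 (0.45) and Acta2 (0.42) had the largest differences among the passing fibroblast markers. Acta2 passed only through its +Dox value, with 6.59 on the +Dox array and 6.17 on the -Dox array. The other passing fibroblast markers were mixed, with Thy1 at 0.27, Col3a1 at -0.07 and Pdgfrb at -0.25. Pdgfrb passed only through its -Dox value, with 6.38 on the +Dox array and 6.63 on the -Dox array. Dcn, Fap, Lum, Postn, Prrx1 and Twist1 were below the filter on both arrays. The part of either cell type in the laminin differences was not tested.

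**Figure D3:**
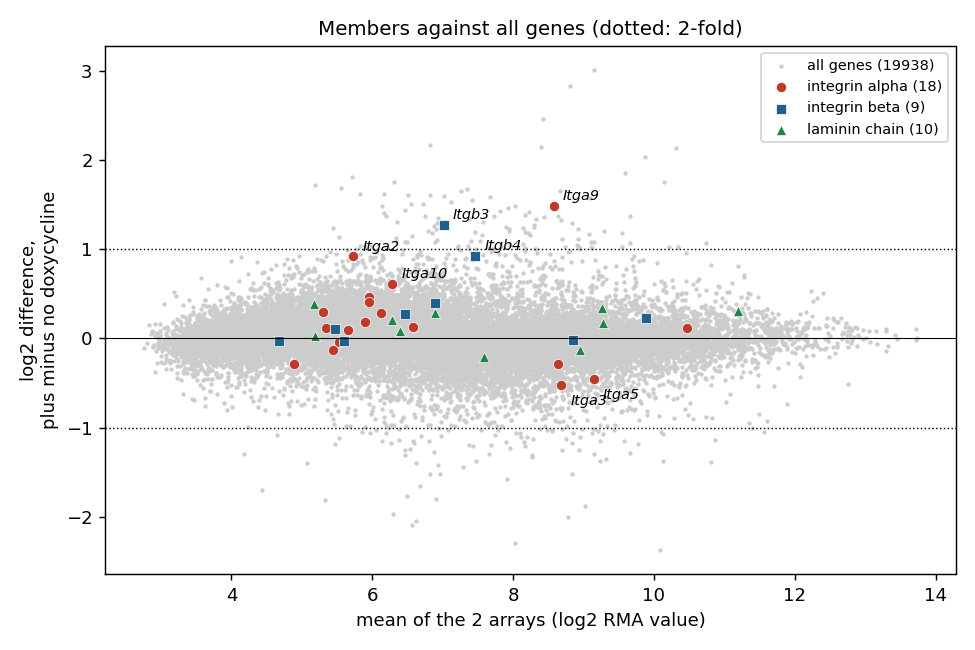
Log2 difference, +Dox minus -Dox (vertical axis), against the mean of both arrays (horizontal axis, log2 RMA value) for all 19938 genes in grey and for the 37 integrin and laminin subunit genes in colour, with dotted lines at 2-fold. Itga9 and Itgb3 lie above the upper line, and the laminin chains (triangles) stay between -0.20 and 0.39.

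Genes that work with integrins and laminins were read from 5 lists. Of 89 genes listed, 86 were measured, 65 passed the filter and 0 were called at 2-fold in either direction. Over all 11191 passing genes, 0.920% were called higher and 0.768% lower, so 0 of 65 does not set the partners apart. Their median difference was 0.05, with values between -0.92 and 0.91.

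Basement membrane partners differed in both directions, with a median of 0.12 over 20 genes. Nid1, the nidogen that bridges laminin and collagen IV, had 10.22 on the +Dox array and 9.35 on the -Dox array. Agrn, a heparan sulfate proteoglycan that binds laminin, had 8.59 on the +Dox array and 9.51 on the -Dox array. Dag1, the dystroglycan receptor of laminin, had 9.39 on the +Dox array and 10.03 on the -Dox array. The nidogen gene was thus on the higher side and both agrin and its receptor gene on the lower side, all under 2-fold.

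Among integrin activators and adhesion adaptors, 27 of 30 measured genes passed and the median difference was -0.03. The kinase gene Fyn had 9.15 on the +Dox array and 8.24 on the -Dox array. The related kinase gene Src had 7.66 on the +Dox array and 8.31 on the -Dox array. Both kinases act downstream of integrins, and their differences, 0.91 and -0.65, had opposite signs. Fermt1, the kindlin of epithelia, had 6.01 on the +Dox array and 6.70 on the -Dox array, so it passed only through the -Dox value.

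Of the other integrin ligands, 8 of 19 measured genes passed and the median was -0.08. Ccn2 and Ccn1, matricellular proteins that bind integrins, had differences of -0.80 and -0.53. Icam1, the ligand of leukocyte integrins, had 8.23 on the +Dox array and 8.94 on the -Dox array. Tnc, Vcam1 and Vtn, named after their values were seen because they encode ligands of alpha 9 beta 1 or of the beta 3 integrins, were below the filter on both arrays. They are only some of the ligands, and Spp1, the osteopontin gene, was not measured. The fibronectin gene Fn1 passed, with 11.59 on the +Dox array and 11.92 on the -Dox array. Mfge8 passed too, with 8.92 on the +Dox array and 9.41 on the -Dox array.

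All 15 of the other laminin receptors and integrin-associated membrane proteins passed the filter, with a median of 0.14. The syndecan gene Sdc2 had 7.10 on the +Dox array and 6.18 on the -Dox array, so it passed only through the +Dox value. Sdc4, a syndecan of focal adhesions, had 7.99 on the +Dox array and 8.71 on the -Dox array. The differences of these syndecans were 0.91 and -0.73, and neither reached 2-fold.

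**Figure D4:**
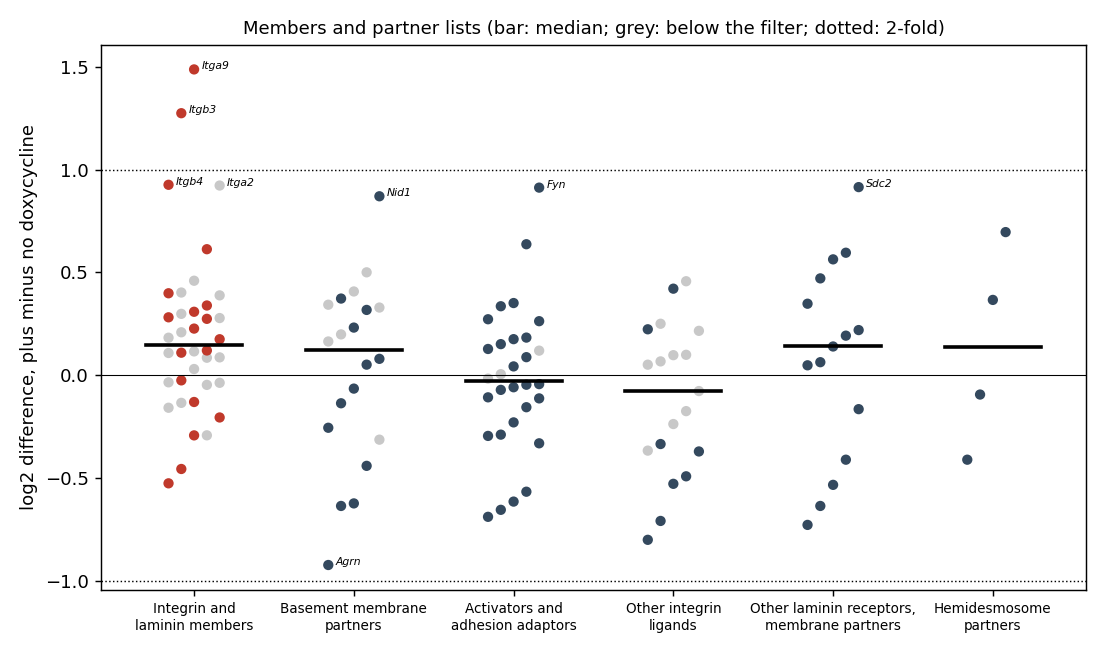
Log2 difference, +Dox minus -Dox, of each gene (points) in the integrin and laminin family and in 5 lists of partners, with the median of each as a bar, dotted lines at 2-fold and genes below the filter in grey. Points past 2-fold are Itga9 and Itgb3; the partners stay between -0.92 and 0.91.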

How the data were processed

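Total RNA of 2 cultures was measured on 1 oligonucleotide array each. The deposited log2 values, 1 for each probeset on each array, were made by the authors with Affymetrix Expression Console and RMA, per the submitters' processing notes. For versions, genome build and probe mapping: not given in the sources used here. Coordinates are therefore printed only for the promoter windows, from the RefSeq table and its build. The log2 values ran from 2.49 to 14.2 on both arrays (medians 6.49 for +Dox and 6.47 for -Dox) and were used as deposited. RMA equalises the arrays, so a shift shared by most genes would not show, and it compresses differences of dim genes. No detection call was used.

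Of 35556 probesets, 21789 had 1 gene in the platform annotation, 1621 had several and 12146 were not listed. A gene's value was the mean of its single-gene probesets. Another 3 probesets name Itgam with a second gene and were left out. All 38 gene identifiers were found in the RefSeq gene table of GRCm38.p6.

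A gene was called when the higher value reached the table's median (6.48) and the difference was at least 2-fold. For comparison at like level, genes were put in 20 bins of mean value. Each share of genes of like level counts the gene itself among the genes of its bin. A summed linear level is the sum of 2 to the power of the log2 values. All members were named; of each list, called genes and up to 3 passing genes with the largest differences were named, and any other list gene was named after its values were seen. The members and lists were chosen with earlier results of these data known. Only the 2-fold call and the loess centring were tested on simulated data, with the changed genes placed well above the filter. Alternatives were other filters, loess centring, quantile normalization, an offset of 32, the brightest probeset, 1.5-fold, and leaving out Itgb3bp, the last chosen after seeing the data. Only 1 array per group limits the precision. Tools were pandas 2.3.3, NumPy 2.4.6 and statsmodels 0.14.6 in Python 3.11.15, with matplotlib 3.10.9 for plots.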

Additional observations from a re-analysis of the deposited data

How the results depend on the processing

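With 1 array per group, no difference has an error between cultures. No paired analysis was possible because each group has 1 array. The count of integrin and laminin genes called higher was 2 (Itga9 and Itgb3) under every alternative except 2: it was 1 (Itga9) when both values had to reach the filter, by construction, since the -Dox value of Itgb3 is under it, and 4 at 1.5-fold. The count called lower was 0 under all of them, 1.5-fold included. The median difference of the members was 0.15, or 0.10 with loess centring, 0.14 with quantile normalization, 0.11 with the offset of 32, and 0.18 without Itgb3bp. Over all genes, 189 were called, but 115 with the offset and 788 at 1.5-fold. Of 152 member differences recomputed, 147 kept their sign, and the other 5 belong to Itgae, Itgb5 and Lama2, all with differences under 0.1 in size. All 5 came with loess centring or quantile normalization. The offset and the brightest probeset cannot change the sign of a gene with 1 probeset, so signs kept there carry no information. The difference of Itga2 moved to 0.57 with the offset.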
